A study of Equus caballus with 45 samples.

Results

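The tripartite motif (TRIM) genes were followed in equine bone marrow mesenchymal stromal cells (MSC) and in joint cells given the conditioned medium (CM) of such MSC. Every row of the count tables whose symbol begins with TRIM and a number was taken, which gave 53 of 20881 genes. Of these, 42 had enough reads to be tested in MSC, 37 in synoviocytes, 40 in chondrocytes and 41 in macrophages, 35 in all 4 cell types and 9 in none, and 1 (TRIM42) had no read in any of the 45 libraries.

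The MSC came from 3 donor horses labelled PC, 99 and 92, and each gave 1 library untreated, 1 with the TLR3 agonist poly I:C, 1 with the STING agonist 2′3′-cGAMP and 1 under the label CpG, which is 12 libraries in all. Cells were exposed to an agonist for 2 h, washed and cultured for 24 h more. The agonist dose is 10 ng/mL in the sample labels but 10 μg/mL in both the series design text and the study's methods. The joint cells comprised 33 libraries, 11 each of synoviocytes, chondrocytes and monocyte-derived macrophages. In each cell type, 9 libraries came from cells given IL-1β and TNF-α with CM of resting MSC, of TLR3-activated MSC (TLR-MSC-CM) or of STING-activated MSC (STING-MSC-CM) (donors PC, ORC and AG1), while 1 came from cells given the cytokines only and 1 from cells with nothing added. Joint cells with CM were kept in it for 24 h, washed and cultured for 24 h more without it. Their values therefore describe cells 24 h after the CM was removed. The labels give the cytokines at 20 ng/mL on synoviocytes and at 10 ng/mL on macrophages, where the study's methods give 20 ng/mL. Donors ORC and AG1 are not among the labelled donors of the MSC libraries, so the response of the MSC behind their media was not analysed here. The methods describe joint cells of a single horse. The donor name of a joint cell library is therefore read here as the MSC donor of its medium. On that reading, p-values in joint cells measure the spread over media and not over horses. The labels do not settle this, since titles of libraries without MSC medium also name ORC or PC. The study's figure legends write of 3 biological replicates of each joint cell type.

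TRIM proteins carry a RING finger, B-boxes and a coiled coil, and most act as ubiquitin ligases. Part of the family is switched on by type I interferon, the cytokine produced when TLR3 detects double-stranded RNA or when cGAMP, made by cGAS on cytosolic DNA, binds STING. Several of these members restrict viruses directly or modify the sensors and adaptors of that same pathway, whereas others are constitutive regulators of chromatin, the cytoskeleton or muscle. The C-terminal domain sorts the family into classes, the most populous being the PRY-SPRY class, which holds many but not all of the antiviral members.

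Total counts per library ran from 28570632 to 50109139 in MSC and from 23525704 to 54103873 in joint cells, and a floor of 3 counts corresponded to 0.0562 to 0.127 CPM (reads of a gene scaled to a common library size by the TMM method). The summed level of 10 macrophage markers matched the labels, at 8018 to 12135 CPM in macrophages and at most 328 CPM elsewhere, the latter in MSC. Among them PTPRC, a general haematopoietic marker, was at 1115 to 1433 CPM in macrophages and at most 0.241 CPM elsewhere. Of 7 cartilage markers, ACAN and COMP were higher in chondrocytes (6.07 to 97.2 CPM and 15.9 to 164 CPM) than in synoviocytes (at most 3.53 CPM and 1.93 CPM) without overlap. CHAD, SOX9, HAPLN1, MATN3 and COL2A1 overlapped, MATN3 ran lower in chondrocytes (0.0378 to 0.702 CPM against 0.578 to 3.05 CPM), and COL2A1, the defining cartilage collagen, was at most 0.383 CPM in them. The summed level of the 7 was 42.2 to 310 CPM in chondrocytes and 9.08 to 23.6 CPM in synoviocytes. The 3 chondrocyte libraries with media of donor ORC stood apart from the other 6 with CM, with SOX9 at 42.8 to 70.3 CPM against 7.53 to 10.7 CPM and a sum of 7 fibroblast and synoviocyte markers of 38327 to 43903 CPM against 19881 to 23479 CPM. The chondrocyte library with nothing added lay with those of ORC, at 1264 SOX9 counts and a marker sum of 40984 CPM. The chondrocyte library with cytokines only did not, at 354 SOX9 counts and 17410 CPM. Levels are given on this scale, and fold changes as log2 with their standard error (SE). Because fewer cells of a kind and less RNA per cell cannot be told apart in bulk libraries, all values describe the cultures as a whole.

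The members were first sorted in MSC by the STING agonist. A member was sorted as induced if its log2 fold change against untreated MSC was at least 1, if its CPM was higher in all 3 donors and if each of the 3 STING libraries held more than 3 counts. This took 5 members, TRIM14, TRIM21, TRIM22, TRIM25 and TRIM34, all of the PRY-SPRY class. Another 37 were sorted as not induced and 11 had too few reads. These 5 were chosen by their values with the STING agonist, which are therefore given as a description.

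TRIM22, an interferon-induced ligase that restricts retroviral transcription, had 0 counts in each of the 3 untreated libraries. With the STING agonist it stood at 59.8 CPM in donor PC, 44 CPM in donor 99 and 26.8 CPM in donor 92. Its mean was at least 537-fold higher than the floor of 3 counts per untreated library. TRIM22 was thus read in every STING library and in no untreated library.

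TRIM21, the cytosolic antibody receptor that sends antibody-coated pathogens to the proteasome, was measured at 8.19, 6.84 and 6.06 CPM in untreated MSC of donors PC, 99 and 92. With the STING agonist it reached 64.5, 56.9 and 35.8 CPM, a log2 fold change of 2.92 (SE 0.74). The groups did not overlap, and donor 92 was lowest in both.

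TRIM25, the ligase that acts on the RNA sensor RIG-I, stood at 6.42, 6.0 and 3.91 CPM untreated and at 21.6, 7.5 and 15.3 CPM with the STING agonist, a log2 fold change of 1.46 (SE 0.67). Donor 99 moved least. TRIM34, a close relative of the capsid-binding TRIM5, was at 1.32, 1.91 and 2.61 CPM untreated and at 7.74, 4.74 and 7.44 CPM with the agonist (log2 fold change 1.79, SE 0.45).

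TRIM14, an adaptor at mitochondrial MAVS that also stabilises cGAS, had 4 counts over the 3 untreated libraries and 101 counts over the 3 STING libraries. The ratio of its depth-scaled counts was 28.0, with a 95% interval of 10.6 to 105 that covers counting error only. In CPM it remained at 0.600 to 1.49 with the agonist, so TRIM14 was scarce in MSC in every condition.

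**Figure D1:**
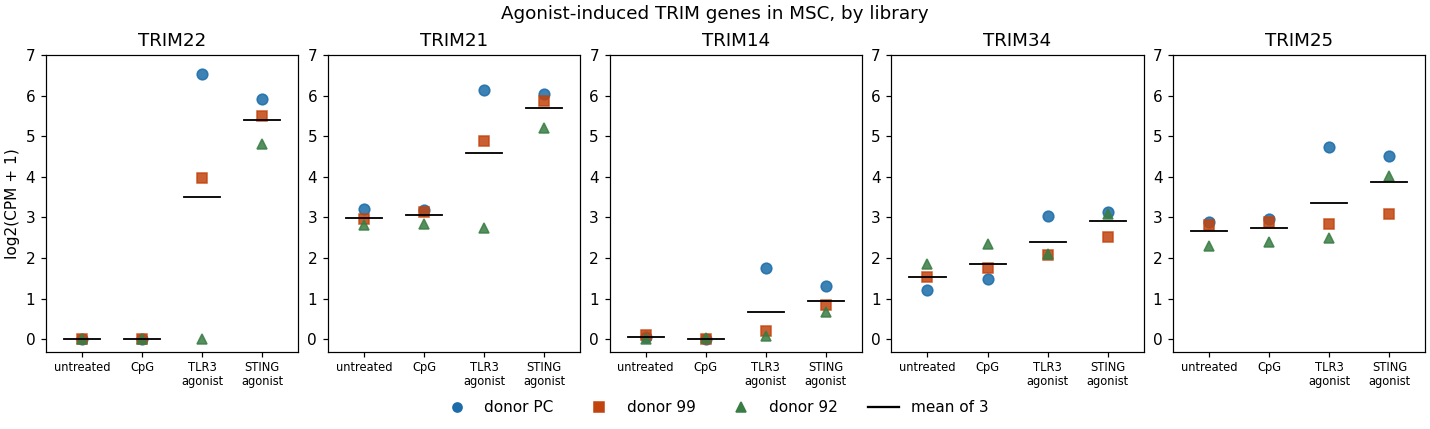
Levels of the 5 induced TRIM genes in 12 MSC libraries, as log2(CPM + 1) on the vertical axis against condition on the horizontal axis; each symbol is 1 donor and each bar the mean of 3 donors. Untreated and CpG libraries lie together, all 3 STING libraries lie above them, and the TLR3 libraries spread from donor PC at the top to donor 92 near the untreated level.

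The member nearest below the threshold with more than a few reads was TRIM26, encoded in the major histocompatibility complex, with a log2 fold change of 0.59 (SE 0.40). It went from 46.4, 38.2 and 30.7 CPM to 70.0, 62.3 and 38.8 CPM in donors PC, 99 and 92, and TRIM25 was the lowest inside. TRIM56, an antiviral ligase, followed with 0.42 (SE 0.22) and was also higher in 3 of 3 donors. A pair of members with larger fitted changes failed the rule on reads. TRIM69 had 2 counts untreated and 3, 13 and 5 counts with the agonist in donors PC, 99 and 92, a count ratio of 11.6 (95% interval 2.84 to 102), and would have been included if donor PC's STING library were left out. TRIM40 had 1 count untreated and 9 counts with the agonist, none of them in donor 92.

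Across the family, no member had an adjusted p under 0.05 with the STING agonist in edgeR, as for 0% of the 14872 genes tested. At an unadjusted p under 0.05 there were 5 of 42 members, all higher (TRIM14, TRIM21, TRIM22, TRIM34 and TRIM69), against 2.1% of all genes; leaving out the untreated library of donor PC left 3. With the MSC donor as a block the members at unadjusted p were 9 against 9.48% of all genes, and the 4 that this added, TRIM25, TRIM26, TRIM41 and TRIM56, were higher too. No member was called with the block (0.0134% of all genes). DESeq2 called 3 members (TRIM21, TRIM22 and TRIM34), where it called 0.625% of all genes. These members were sorted as induced on the same libraries, so their calls are not separate support for the sorting. The DESeq2 adjusted p was 0.000784 for TRIM22. Over all settings tried, the rest of them edgeR fits, the adjusted p for TRIM22 ranged from that value to 1. In all, 12 of 42 members were higher in every donor, against 14.1% of all genes.

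Most of the remaining members lay near their untreated level. Of the 37 not induced, 32 had a mean of at least 1 CPM untreated, 31 had a log2 fold change within 0.3 of 0 and 35 within 0.7. The sorting used this same fold change, so the range is partly set by it and is given as a description. The share of all genes within these limits is not given. TRIM28, the corepressor that silences retroelements with KRAB zinc finger proteins, was at 282, 295 and 435 CPM untreated and at 260, 339 and 377 CPM with the STING agonist in donors PC, 99 and 92 (log2 fold change −0.03). TRIM8, a modulator of NF-κB and cytokine signalling, was at 99.9 to 123 CPM untreated and 89.0 to 113 CPM with the agonist. The 4 chromatin readers with a PHD finger and bromodomain (TRIM24, TRIM28, TRIM33 and TRIM66) had log2 fold changes from −0.23 to 0.21.

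With the TLR3 agonist the same members differed between the libraries of the 3 donors. The TLR3 library of a donor has no replicate, so the donor and the treatment of that culture cannot be told apart. These values share the untreated libraries with the STING comparison. TRIM22 was at 90.7 CPM in donor PC and 14.6 CPM in donor 99, and at 0 counts in donor 92. TRIM21 was at 68.9, 28.6 and 5.63 CPM in donors PC, 99 and 92, so donor 92 lay below all 3 untreated libraries. TRIM14 had 117, 7 and 2 counts. TRIM25 was at 25.7 CPM in donor PC but at 6.12 and 4.66 CPM in donors 99 and 92, within the range of untreated MSC. TRIM34 was at 7.19, 3.20 and 3.26 CPM, above all 3 untreated libraries.

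The same split between the TLR3 libraries was seen outside the family. MX1, a widely used interferon response gene, was at 633 and 519 CPM in donors PC and 99 and at 3.64 CPM in donor 92 with the TLR3 agonist, compared with 1.41 to 6.85 CPM untreated and 532 to 935 CPM with the STING agonist. The summed level of 18 interferon response genes in donor 92 was 358 CPM with the TLR3 agonist and 357 CPM untreated. Of these 18 genes, 17 were higher at an unadjusted p under 0.05 with each agonist in edgeR, none with an adjusted p under 0.05. Of 13 partners of nucleic acid sensing, 5 were higher at that unadjusted threshold with each agonist. Among 10 macrophage markers, CD68 moved with these genes (12 to 15.1 CPM untreated, 50.8 to 327 CPM with the STING agonist, 9.74 CPM in donor 92 and 124 to 139 CPM in the others with the TLR3 agonist), while PTPRC and CSF1R were at most 0.241 and 0.308 CPM in all 12 MSC libraries. The summed level of the 10 markers ran from 9.56 to 22.3 CPM without an agonist or with CpG and from 52.0 to 328 CPM with the STING agonist, and its part in the TRIM values was not tested.

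In the edgeR test 0 of 42 members were called with the TLR3 agonist (0% of all genes), and 4 passed an unadjusted p under 0.05, all higher (TRIM14, TRIM21, TRIM22 and TRIM34), against 1.15% of all genes. That count was 1 without donor PC's TLR3 library and 2 without donor PC's untreated library. The log2 fold change was 2.31 (SE 0.72) for TRIM21, 1.25 (SE 0.44) for TRIM34 and 1.18 (SE 0.67) for TRIM25, and TRIM22 was at least 433-fold above the floor on its mean, which rests mostly on donor PC, with donor 92 at 0 counts. Without donor PC's TLR3 library the log2 fold change was 1.31 for TRIM21, 0.76 for TRIM34 and 0.01 for TRIM25. DESeq2 called TRIM22 alone, with an adjusted p of 0.00242, and 0.323% of all genes. Without donor 92's TLR3 library, edgeR called 2 members (TRIM21 and TRIM22) in each agonist comparison. Higher values in all 3 donors were seen in 7 of 42 members, against 8.61% of all genes.

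Directly compared, the STING and TLR3 agonists gave no called member (0% of all genes) and none at an unadjusted p under 0.05 (0.242% of all genes) by edgeR or DESeq2, although 4 members passed the unadjusted threshold when donor PC's TLR3 library was left out. The difference, STING minus TLR3, was 0.60 (SE 0.69) for TRIM21 and 0.54 (SE 0.43) for TRIM34. The CpG libraries gave none of 43 members called (0% of all genes) and none at unadjusted p (0.305% of all genes) against untreated MSC by either tool. TRIM22 had 0 counts in all 3 CpG libraries, and TRIM21 stayed at 6.21 to 8.10 CPM. TRIM34 had 166, 81 and 65 counts with CpG and 125, 68 and 41 counts untreated in donors 92, 99 and PC. The paper's text does not describe CpG treatment, so what these cells received is known from the label only.

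Some members not sorted as induced lay apart by MSC donor whatever the treatment, as did a share of all genes. Of 38 members reaching 1 CPM in an MSC library, 8 had all 4 libraries of donor 92 above those of the other donors and 6 had them below, against 12.6% and 13.6% of all genes at that level. The same was seen above and below for 2 and 3 members in donor 99 (6% and 7.44% of all genes) and for 3 and 3 members in donor PC (9.1% and 8.61%). TRIM63, a muscle ubiquitin ligase, had 0, 4, 0 and 1 counts in donor 92 and 3.29 to 4.78 CPM in the other donors. TRIM46, which organises axonal microtubules, was at 0.10 to 0.221 CPM in donor 92 and 2.56 to 5.39 CPM in the others. TRIM6 showed the reverse, at 1.57 to 2.91 CPM in donor 92 and at most 0.201 CPM elsewhere. TRIM35 was at 68.1 to 116 CPM in donor 92 and 19.4 to 39.4 CPM in the others. Each donor is 1 horse, and these values are given as a description.

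Of the family members that carry other symbols, PML, the organiser of nuclear bodies, moved like the induced set. It was at 45.3, 50.3 and 46.2 CPM untreated, 194, 209 and 172 CPM with the STING agonist, and 242, 147 and 48.8 CPM with the TLR3 agonist in donors PC, 99 and 92. Its log2 fold change was 2.04 (SE 0.47) with the STING agonist, for which DESeq2 gave an adjusted p of 0.00952 and edgeR made no call. MID1 and MID2, microtubule-associated ligases, had log2 fold changes of 0.29 (SE 0.86) and −0.54 (SE 0.59). MEFV, which encodes pyrin, had at most 7 counts in any MSC library.

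**Figure D2:**
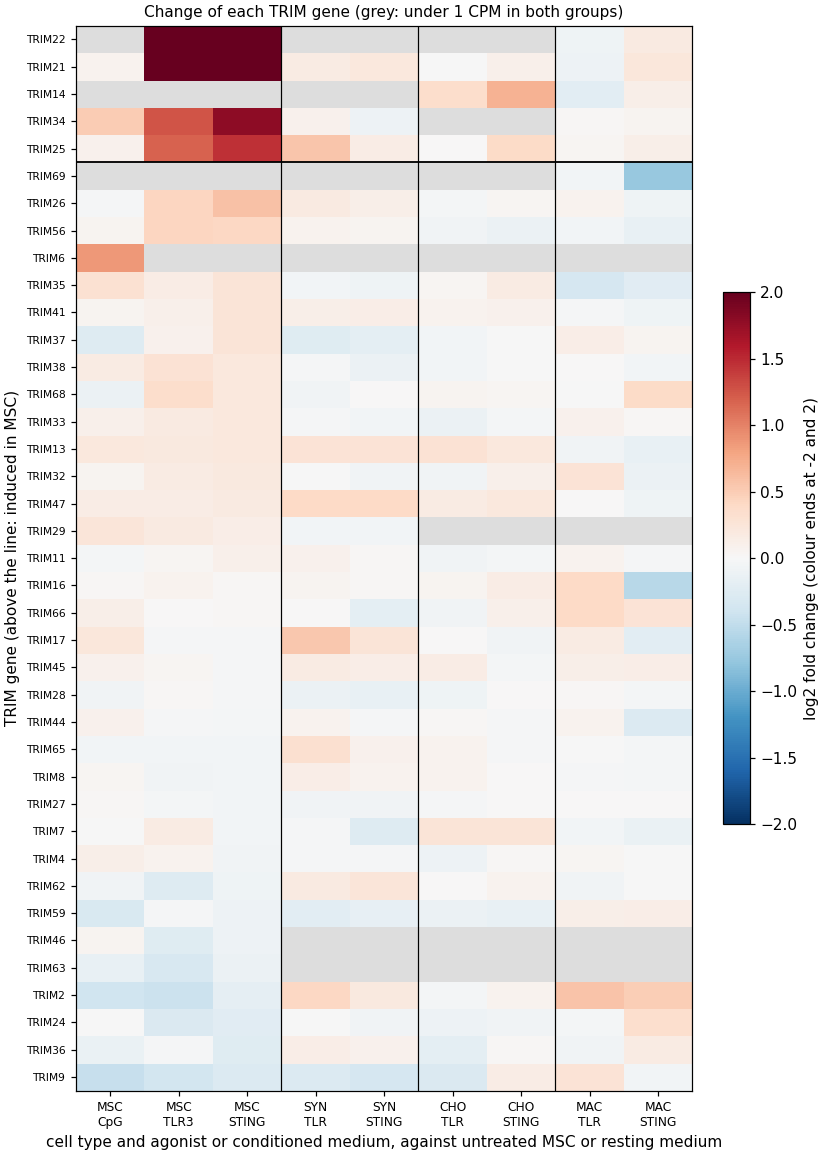
Log2 fold change of 39 TRIM genes (rows) in 9 comparisons (columns) by colour, with MSC conditions against untreated MSC and joint cells with activated CM against resting CM; grey marks members under 1 CPM in both groups, and the colour ends at −2 and 2, where TRIM22 in MSC lies beyond the end. The darkest cells are those of TRIM21, TRIM22, TRIM25 and TRIM34 in MSC with either agonist (TRIM14 is grey there), while the columns of the joint cells are paler, with TRIM14 in chondrocytes and TRIM2, TRIM16 and TRIM69 in macrophages the most coloured.

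The same 5 members were next followed in joint cells, whose libraries the sorting had not used. In synoviocytes, no member was called for TLR-MSC-CM against resting CM in edgeR or DESeq2 (0% of all genes in edgeR). At an unadjusted p under 0.05 there were 6 of 37 members, 5 higher and 1 lower, against 10% of all genes; the count was 3 without the resting CM library of donor ORC, 2 without that of donor PC and 3 without ORC's TLR-MSC-CM library. TRIM25 had the smallest p. It was at 7.78, 7.93 and 7.47 CPM with resting CM of donors PC, ORC and AG1 and at 9.15, 14.8 and 10.6 CPM with TLR-MSC-CM, higher with each donor (log2 fold change 0.55, SE 0.16), and the exact permutation p was 0.1, the smallest that 3 against 3 allows. TRIM25 was singled out by its p on these libraries, so the permutation p is not separate support. TRIM17, TRIM47, TRIM65 and TRIM2 were the other members on the high side, with log2 fold changes of 0.54, 0.40, 0.32 and 0.42, and TRIM37 was on the low side (−0.24).

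Synoviocytes given ORC's TLR-MSC-CM stood apart from the other 2 libraries of that group. In that library TRIM21 was at 8.68 CPM against 6.38 and 6.12 CPM with the media of donors PC and AG1, TRIM34 at 2.97 against 1.41 and 1.55 CPM, and TRIM22 at 7 counts against none. MX1 was at 18 CPM there and at 5.24 and 6.24 CPM in the other 2. The median log2 fold change of the 3 induced members tested was 0.16, beside 0.00 for all genes, and −0.01 without that library and 0.30 without PC's TLR-MSC-CM library. STING-MSC-CM on synoviocytes gave none called (0% of all genes, and none by DESeq2) and 1 member at unadjusted p, TRIM47 with a log2 fold change of 0.39 (SE 0.15), against 7.6% of all genes. That member was lost without ORC's or PC's STING-MSC-CM library, and 3 members passed without the AG1 library of either condition. TRIM21 was at 6.66, 7.22 and 7.97 CPM with STING-MSC-CM of donors PC, ORC and AG1 and at 6.30, 6.06 and 6.39 CPM with resting CM (log2 fold change 0.22, SE 0.14), and the median of the induced members was 0.15, or 0.10 without ORC's STING-MSC-CM library. Between STING- and TLR-MSC-CM none was called (0% of all genes, and none by DESeq2) and TRIM25 alone passed the unadjusted threshold, lower with STING-MSC-CM by a log2 fold change of −0.40 (SE 0.16), against 2.02% of all genes. It no longer did without donor AG1's STING-MSC-CM library, and 2 members passed without AG1's or PC's TLR-MSC-CM library.

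In chondrocytes, none of 40 members was called and none passed an unadjusted p under 0.05 by edgeR or DESeq2 for TLR-MSC-CM (0% and 0.559% of all genes), STING-MSC-CM (0% and 0.909%) or between both (0% and 0.811%). TRIM22 had 0 counts with resting CM and at most 3 counts in any chondrocyte library. TRIM14 was at 0.953, 0.484 and 0.987 CPM with resting CM of donors PC, ORC and AG1, 0.900, 0.478 and 1.76 CPM with TLR-MSC-CM and 0.793, 0.453 and 2.63 CPM with STING-MSC-CM. TRIM25 was at 8.05, 8.67 and 9.57 CPM with resting CM and at 8.0, 12.3 and 13.9 CPM with STING-MSC-CM (log2 fold change 0.38, SE 0.19).

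The STING-MSC-CM of donor AG1 stood apart. It held the highest chondrocyte values of TRIM14, TRIM25 and TRIM34 (0.703 CPM), TRIM21 was at 8.28 CPM against 5.02 and 4.79 CPM with the media of donors PC and ORC, and MX1 was at 37.2 CPM against 1.06 and 3.17 CPM. The summed level of 18 interferon response genes was 871 CPM in it and 458 to 517 CPM in the other 8 chondrocyte libraries with CM. The summed level of 10 macrophage markers was 38.7 CPM in it and 13.6 to 19.6 CPM in the other 8, with CD68 at 36.4 CPM against 11.5 to 16.1 CPM. Of the other markers, PTPRC, CSF1R, CD163 and MRC1 had 0 counts in this library. TYROBP had 1 count, AIF1 3, FCER1G 9, ITGAM 38 and CD14 48. The part of this sum in the TRIM values was not tested. The median log2 fold change of the 4 induced members tested was 0.54 with STING-MSC-CM, beside 0.00 for all genes, and −0.29 without this library and 0.31 without ORC's resting CM library. With TLR-MSC-CM it was −0.00, and it lay between −0.19 without donor AG1's TLR-MSC-CM library and 0.23 without donor PC's resting CM library. When donor PC's STING-MSC-CM library was left out, 3 members passed the unadjusted threshold against resting CM and 2 against TLR-MSC-CM; 1 passed against STING-MSC-CM without ORC's or PC's TLR-MSC-CM library. With the donor as a block, 2 members passed it for STING-MSC-CM, TRIM25 and TRIM35 (3.92% of all genes), and 2 between STING- and TLR-MSC-CM, TRIM25 and TRIM6 (4.18%). None was called with the block, as for 0.014% of all genes with STING-MSC-CM and 0% in the other 2 comparisons.

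**Figure D3:**
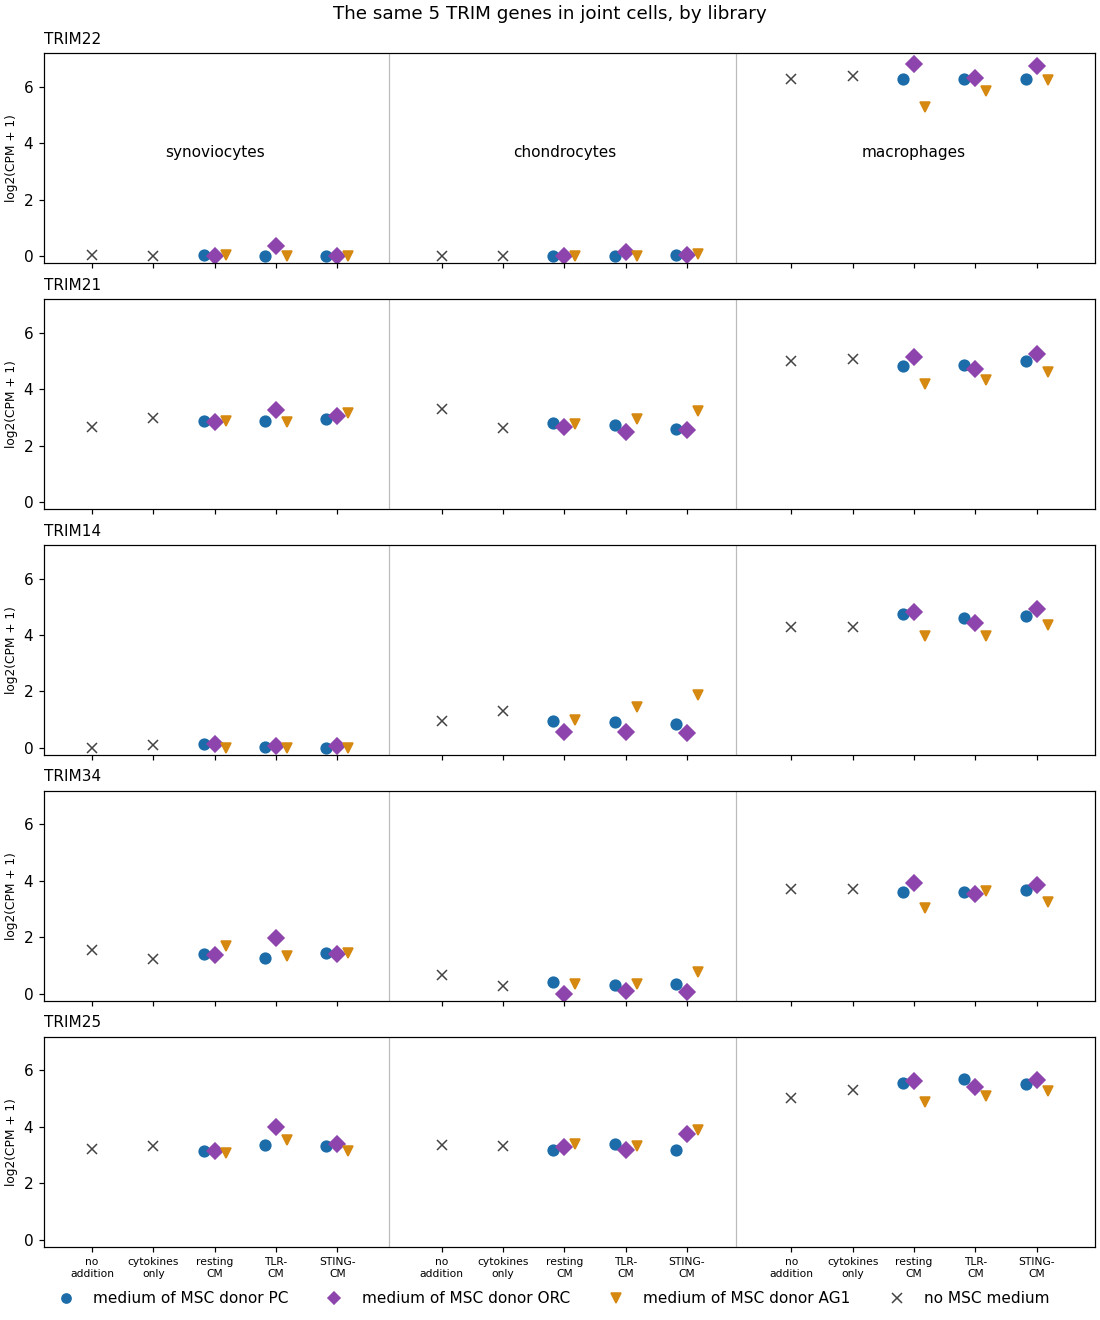
Levels of the 5 members induced in MSC in the 33 joint cell libraries, as log2(CPM + 1) on the vertical axis against added medium on the horizontal axis, with 1 symbol per library and the shape giving the MSC donor of the medium. All 5 lie highest in macrophages whatever was added, TRIM22 lies near 0 in synoviocytes and chondrocytes, and single libraries stand out for TLR-MSC-CM of donor ORC in synoviocytes and STING-MSC-CM of donor AG1 in chondrocytes.

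In macrophages all 5 induced members were well above the floor, and their values with the 3 kinds of CM overlapped. TRIM22 was at 76.2, 111 and 38.0 CPM with resting CM of donors PC, ORC and AG1, 76.5, 78.7 and 56.8 CPM with TLR-MSC-CM and 76.0, 106 and 74.1 CPM with STING-MSC-CM. The resting CM library of donor AG1 was the lowest of the 11 macrophage libraries for TRIM21, TRIM22, TRIM25 and TRIM34, and for MX1 (136 CPM against 160 to 541 CPM). The median log2 fold change of the 5 members was −0.09 with TLR-MSC-CM and 0.12 with STING-MSC-CM, beside 0.01 and −0.01 for all genes, and −0.35 and −0.11 without that library. It was 0.17 and 0.30 without the resting CM library of donor ORC.

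No macrophage member was called by edgeR or DESeq2 for TLR-MSC-CM, for STING-MSC-CM or between both (0% of all genes each in edgeR). TLR-MSC-CM gave none of 41 members at an unadjusted p under 0.05, against 2.13% of all genes, and 2 without donor ORC's TLR-MSC-CM library; 1 passed without that of donor AG1 or without the resting CM library of donor PC or ORC. STING-MSC-CM gave 3, with TRIM68 higher and TRIM69 and TRIM44 lower, against 4.76% of all genes, and 1 without the resting CM library of donor AG1. TRIM69, an antiviral member that was barely read in the other joint cells, was at 3.41, 3.48 and 3.89 CPM with resting CM of donors PC, ORC and AG1, 3.15, 3.39 and 3.86 CPM with TLR-MSC-CM and 2.81, 1.70 and 1.88 CPM with STING-MSC-CM. All 3 STING-MSC-CM libraries lay below the other 6 (log2 fold change −0.75, SE 0.22, against resting CM), while cells with cytokines only were at 2.13 CPM and untreated cells at 2.54 CPM.

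TRIM44, which lacks the RING finger, was at 25.7, 21.3 and 23.9 CPM with resting CM and 20.5, 18.4 and 19.4 CPM with STING-MSC-CM (log2 fold change −0.28, SE 0.10). TRIM68, a coactivator of the androgen receptor, was at 6.98, 6.24 and 6.24 CPM and 9.26, 8.41 and 7.59 CPM (0.38, SE 0.14). The groups did not overlap for either member, and the exact permutation p was 0.1, the smallest possible. TRIM44, TRIM68 and TRIM69 were named for their p and direction in this same comparison. Their lack of overlap is therefore not separate support, and the share of all genes without overlap is not given. Between STING- and TLR-MSC-CM, 5 members passed the unadjusted threshold against 6.6% of all genes. TRIM68 and TRIM36 were higher with STING-MSC-CM, and TRIM44, TRIM69 and TRIM16 lower. The count was 3 without donor PC's STING-MSC-CM library. TRIM16, which acts at damaged lysosomes, was at 3.73, 2.89 and 2.28 CPM with TLR-MSC-CM and at 1.37, 2.23 and 0.975 CPM with STING-MSC-CM (−0.95, SE 0.34). With the donor as a block, 7 members passed for STING-MSC-CM against resting CM (13.5% of all genes) and 9 for STING- against TLR-MSC-CM (16.3% of all genes), and 1, TRIM35, for TLR-MSC-CM (6.26%). None was called with the block, against 0.531%, 2.23% and 0% of all genes in the same order.

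Whether the change with a medium differed between joint cell types was tested by an interaction term over all 27 libraries with CM. No member was called by edgeR or DESeq2, and edgeR called 0% of all genes in each contrast. At an unadjusted p under 0.05, the change with TLR-MSC-CM differed for 2 members between macrophages and synoviocytes (3.99% of all genes), 0 between macrophages and chondrocytes (2.64%) and 2 between chondrocytes and synoviocytes (1.72%). The change with STING-MSC-CM did so for 4 (4.38% of all genes), 3 (3.59%) and 2 (1.74%) members in the same order. DESeq2 gave 1, 0 and 1 members for TLR-MSC-CM and 3, 3 and 4 for STING-MSC-CM at that threshold. In edgeR, TRIM44 differed in macrophages from both other cell types (log2 differences −0.26 and −0.25, SE 0.12 each), and TRIM24, a chromatin reader, did so with 0.41 (SE 0.19) against each. Leaving out single libraries moved these counts between 0 and 5.

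The levels under resting CM were then compared between the joint cell types. By the methods, each cell type is 1 culture source with 3 media. Cell source and cell type cannot be told apart, nor can the cytokine dose where the labels hold. Of 42 members tested, 19 were higher and 17 lower in macrophages than in synoviocytes, against 36.6% and 35.1% of all genes. Against chondrocytes 17 were higher and 15 lower, with 36.6% and 34.9% for all genes. In all, 17 members were higher in macrophages than in both other cell types and 13 lower, against 32.3% and 30% of all genes, and 4 (TRIM4, TRIM9, TRIM11 and TRIM68) were called in no comparison. With the donor as a block, 17 were higher and 17 lower than in synoviocytes (36.1% and 35.2% of all genes), where TRIM15 and TRIM40 were lost, and 16 higher and 15 lower than in chondrocytes (36.5% and 34.8%), where TRIM15 was lost.

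All 5 members induced in MSC were higher in macrophages than in both other cell types (edgeR adjusted p of 0.0002 or less for each). TRIM22 summed to 7024 counts over 3 macrophage libraries, 2 counts over 3 synoviocyte libraries and none in chondrocytes, where the fold was at least 753. TRIM14 was at 25.9, 27.1 and 14.7 CPM in macrophages, with 6 counts in all in synoviocytes and 78 in chondrocytes. TRIM34 was at 11.3, 14.3 and 7.21 CPM in macrophages, 1.65, 1.58 and 2.22 CPM in synoviocytes and 0.329, 0 and 0.267 CPM in chondrocytes. TRIM21 and TRIM25 were higher than in synoviocytes by log2 fold changes of 2.05 (SE 0.22) and 2.39 (SE 0.19). The interferon response genes went the same way, with 18 of 18 higher than in synoviocytes and 16 of 18 higher than in chondrocytes, as did 12 of 13 sensing partners in each comparison.

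Members that were not induced in MSC were among those higher in macrophages too. TRIM65, the ligase of the RNA sensor MDA5, was at 30.8, 28.0 and 38.5 CPM in macrophages and 4.84 to 6.65 CPM in synoviocytes (log2 fold change 2.52, SE 0.19). TRIM47, its neighbour in the genome, was at 46.1, 46.2 and 59.2 CPM and 8.59 to 11.3 CPM (2.36, SE 0.14). TRIM8 was at 465 to 576 CPM in macrophages and 141 to 179 CPM in the other joint cells. TRIM13, an endoplasmic reticulum ligase, differed by 1.92 (SE 0.25) from synoviocytes. TRIM69 had 369 counts over the macrophage libraries, 10 over those of synoviocytes and none in chondrocytes, at least 36.0-fold.

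Among the members lower in macrophages, TRIM2, a neuronal NHL-domain ligase, was at 0.913, 1.27 and 0.729 CPM in macrophages, 18, 13.6 and 17.7 CPM in synoviocytes and 42.6, 37.1 and 37.0 CPM in chondrocytes, so all 3 cell types differed (macrophages against synoviocytes −4.13, SE 0.20; chondrocytes against synoviocytes 1.24, SE 0.16). TRIM29, an epithelial member without a RING finger, had 0 counts in resting CM macrophages and was at least 18.6-fold higher in synoviocytes and 9.42-fold in chondrocytes. TRIM6 likewise had no macrophage count in any of 11 libraries. TRIM32, mutated in a limb-girdle muscular dystrophy, differed by −1.45 (SE 0.18), the centrosomal TRIM37 by −1.46 (SE 0.13) and TRIM17 by −1.49 (SE 0.26) from synoviocytes. The 4 PHD-bromodomain members were lower in macrophages than in synoviocytes by log2 fold changes of −0.40 to −0.62.

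Between chondrocytes and synoviocytes, 5 members were higher (TRIM2, TRIM14, TRIM16, TRIM17 and TRIM46) and 5 lower (TRIM34, TRIM35, TRIM36, TRIM44 and TRIM69), against 8.31% and 9.84% of all genes. With the donor as a block there were 7 higher and 4 lower (8.86% and 10.5% of all genes), with TRIM41 and TRIM65 added (edgeR adjusted p of 0.0368 and 0.0287) and TRIM69 lost (0.0616). The ORC chondrocyte library, which stood apart in SOX9 and the fibroblast markers, was at 6.49 CPM for TRIM16 against 13.3 and 12.1 CPM with the media of donors PC and AG1 and at 0 counts for TRIM34 against 10 in each of the others, and without it 12 members were called. TRIM14 had 78 counts in chondrocytes and 6 in synoviocytes, a depth-scaled ratio of 12.2 (95% interval 5.35 to 34.2), whereas TRIM34 went the other way by −3.09 (SE 0.54). TRIM17 lost its call without the resting CM library of synoviocytes ORC or PC or of chondrocytes AG1, and TRIM36 lost it in all fits that left out a library except those without chondrocytes PC or synoviocytes ORC; over left-out libraries their log2 fold changes ranged from 0.73 to 1.08 and from −1.01 to −0.57. TRIM46 had 81 counts against 1, and TRIM16 was higher by 1.43 (SE 0.28). PML was higher in macrophages than in synoviocytes by 1.37 (SE 0.18), and MID1 had no macrophage count under resting CM, at least 32.1-fold below synoviocytes.

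**Figure D4:**
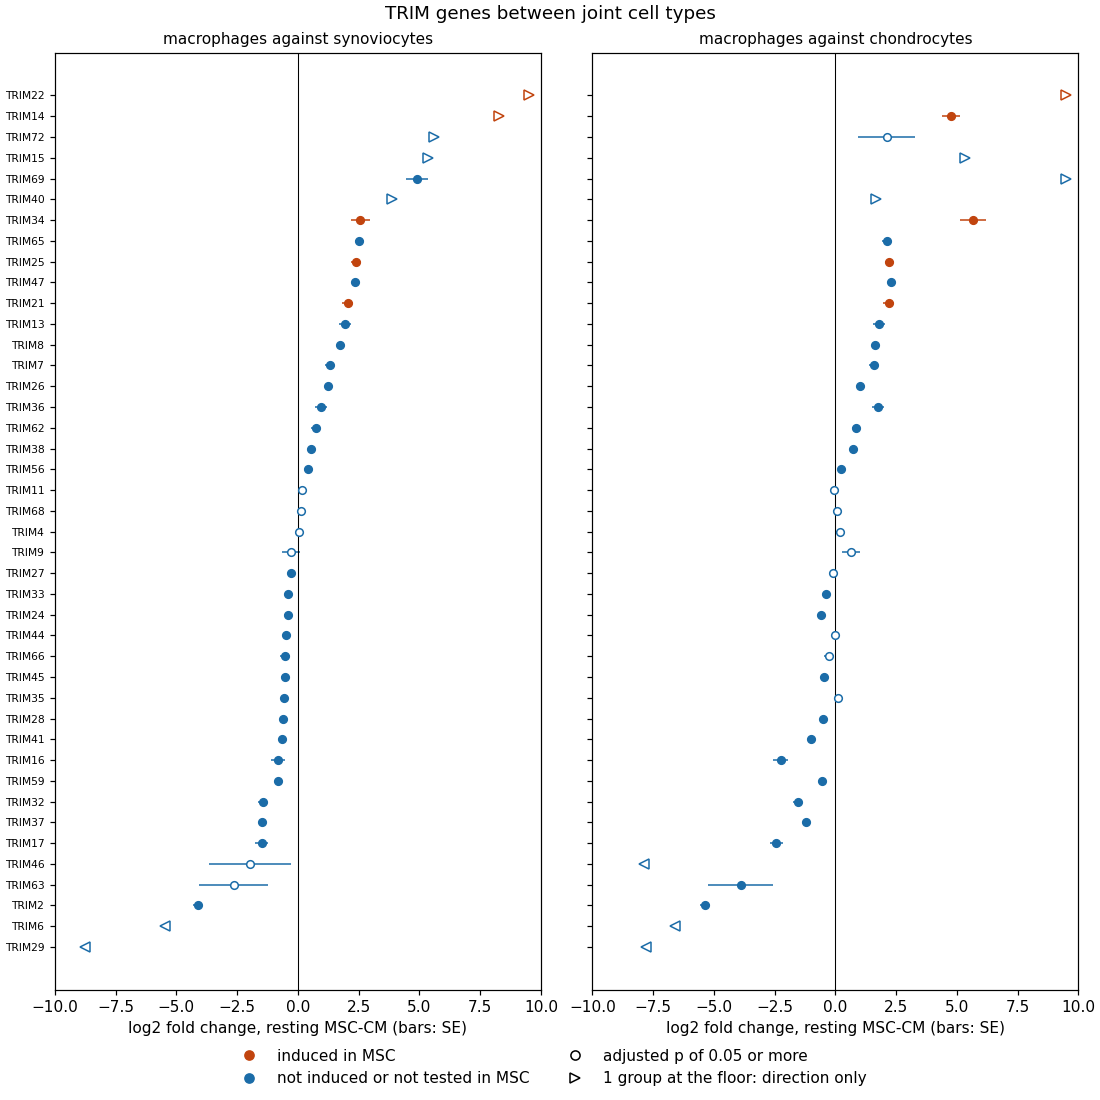
Log2 fold change of 42 TRIM genes in macrophages against synoviocytes (left) and chondrocytes (right) with resting CM, with bars for the SE; filled circles have an adjusted p under 0.05, open circles do not, and open triangles mark members where 1 group lies at the floor, for which the direction alone is read. The 5 members induced in MSC (orange-red) lie on the macrophage side in both panels, beside TRIM69, TRIM65 and TRIM47.

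The single libraries with cytokines only and with nothing added have no replicate and give values without a test. Among members at 1 CPM or more in either library, 1 of 33 in synoviocytes, 3 of 34 in chondrocytes and 0 of 33 in macrophages differed by 2-fold or more, against 5.74%, 11.3% and 0.923% of all genes. In synoviocytes this was TRIM9, at 1.45 CPM with cytokines and 2.99 CPM without. In chondrocytes it was TRIM29 (0.451 and 1.59 CPM), TRIM46 (0.877 and 2.15 CPM) and TRIM59 (12.8 and 26.2 CPM). This chondrocyte pair also differed in the sum of 7 fibroblast and synoviocyte markers, at 17410 CPM with cytokines and 40984 CPM without. ORC's chondrocyte libraries stood apart from the others with CM in the same sum. The part of this difference in these TRIM values was not tested. The induced members had cytokine to no addition ratios between 0.586 (TRIM21 in chondrocytes) and 1.62 (TRIM14 in chondrocytes), and in macrophages TRIM22 was at 81.8 CPM with cytokines and 77.1 CPM without.

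Of the 53 members, 52 had their symbol in the RefSeq annotation of another horse assembly than EquCab3.0, which was used for gene order and not for coordinates; TRIM25 was not listed under its symbol. TRIM34 lay next to TRIM6 there and was separated from TRIM22 by 4 protein coding genes. TRIM65 lay next to TRIM47, TRIM41 next to TRIM7, TRIM17 next to TRIM11, and TRIM40, TRIM10, TRIM15 and TRIM26 followed each other. How reads shared by neighbouring relatives were counted is not given in the sources used here, so levels of TRIM6, TRIM22 and TRIM34 carry that uncertainty.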

How the data were processed

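RNA sequencing counts were analysed for 12 MSC and 33 joint cell libraries. Per the labels and the study's methods, the authors trimmed reads with cutadapt 1.12, aligned them with STAR to EquCab3.0 and counted reads per gene with HTSeq 0.11.0, and the deposited values were raw counts per gene in a table for MSC and a table for joint cells. As deposited, 41 very high counts were written to 3 digits; the highest TRIM count was 23711. Another 3971 genes were listed by identifier and not by symbol.

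Levels are CPM after TMM scaling within each table, so levels of MSC and joint cells were not tested against each other. Genes reaching 10 counts in all over the fitted libraries were tested with the quasi-likelihood test of edgeR 4.0.16 in R 4.3.3, with Benjamini-Hochberg adjustment over all genes tested and a threshold of 0.05. MSC conditions were fitted with all TLR3, STING and untreated libraries, CpG against untreated with all 12 MSC libraries, cell types over 9 libraries with resting CM, media within each joint cell type, and interactions over the 3 joint cell types. Alternatives were DESeq2 1.42.0, upper quartile scaling, edgeR's own filter, no filter, a sorting threshold of 2 in place of 1, the MSC donor as a block, and each library left out in turn. The block follows the design, since libraries of the same number or name are read as sharing an MSC donor. Deviations from the group means had a median correlation of 0.776 within donors in MSC. The median was 0.0121 in synoviocytes, 0.181 in macrophages and 0.415 in chondrocytes. The test was run on simulated counts built from the macrophage libraries, with changes set in genes above 1 CPM. The simulation held no donor effect, so it does not cover the MSC fits or members near the floor.

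A fold against a group without counts was set against a floor of 3 counts per library, scaled like the CPM, and ratios of few counts carry a 95% interval for counting error. Genes were named by rule: the induced members, up to 3 others per direction and medium comparison that moved alike in each donor at an unadjusted p under 0.05, up to 5 per direction and cell type comparison with the largest change among those called at 1 CPM or more, and the members under other symbols. Others, such as those that lay apart by MSC donor, were chosen after their values were seen. The members and lists were chosen with earlier results of these data known.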

Additional observations from a re-analysis of the deposited data

Results flagged for a closer look

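A pair of members differed in direction with the same medium between macrophages and chondrocytes, alike in all 3 donors' libraries of each. They were picked for that direction, and the share of all genes with this pattern is not given. TRIM2 was higher with TLR-MSC-CM in macrophages (log2 fold change 0.56), while in chondrocytes it was lower but nearly unchanged (−0.05). The fitted difference was 0.63 (SE 0.35, unadjusted p = 0.0893 and adjusted p close to 1 in the edgeR interaction test). TRIM35 was lower with STING-MSC-CM in macrophages (−0.22) and higher in chondrocytes (0.16), a fitted difference of −0.38 (SE 0.24, unadjusted p = 0.12 in the edgeR interaction test). Neither difference passed the threshold.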

How the results depend on the processing

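DESeq2 called 1 member with the TLR3 agonist and 3 with the STING agonist in MSC, where edgeR called 0. When a library was left out, these edgeR counts ranged from 0 to 2 for each agonist, the 2 arising without donor 92's TLR3 library. Sorting at a log2 fold change of at least 2 kept 3 members (TRIM14, TRIM21 and TRIM22), with a median of 0.17 for TLR-MSC-CM in chondrocytes, and leaving out a library gave 5 to 6 induced members. The median of the induced members in chondrocytes ranged over left-out libraries from −0.19 to 0.23 with TLR-MSC-CM and from −0.29 to 0.75 with STING-MSC-CM. With the MSC donor as a block no member was called in MSC or with any medium, beside 0 to 2.23% of all genes, and that median was 0.04 for TLR- and 0.46 for STING-MSC-CM. Of the alternatives for the counts of calls, the medians and the sorting, 500 stayed within the limits set for a change and 11 moved. For single genes and unadjusted counts 1012 stayed, 88 moved, 8 passed the threshold anew and 10 lost it, and none reversed. A count stayed if it equalled the main count or lay within a set ratio of it, so 0 against 0 counted as stayed. A median stayed if it shifted by less than its standard deviation over the 3 donors. These totals do not measure how stable a given result was. Between cell types, left-out libraries gave 30 to 37 called members for macrophages against synoviocytes, 29 to 32 against chondrocytes and 7 to 12 for chondrocytes against synoviocytes, the 12 arising without ORC's resting CM library of chondrocytes; the block gave 34, 31 and 11. With 3 donors or media a group, an exact permutation test cannot go below 0.1, and members with a few counts per library, such as TRIM69 and TRIM40 in MSC, cannot be sorted reliably at this depth.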
